A study of Mus musculus with 9 samples.

Results

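Amino acid and monocarboxylate carriers of the liver were followed as the protein-coding mouse genes whose symbols begin with Slc1a, Slc3a, Slc6a, Slc7a, Slc16a, Slc36a, Slc38a or Slc43a. The GENCODE annotation of GRCm38 held 78 such genes, and all 78 were among the 56719 genes of each count file. They comprised 21 genes of the SLC6 family, 16 of SLC7, 14 of SLC16, 11 of SLC38, 7 of SLC1, 4 of SLC36, 3 of SLC43 and 2 of SLC3. A filter on low counts kept 50 of the 78 for testing, among 17704 genes tested in all. The symbol rule also takes in Slc7a6os, which is named for its place opposite Slc7a6 and is not a carrier, and Slc43a3, a carrier of purine nucleobases.

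Liver messenger RNA of C57BL/6J mice was sequenced in 3 groups of 3 libraries. WT mice were gavaged with PBS for 4 weeks and then received PBS into the tail vein. Con A mice were gavaged with PBS for the same 4 weeks and received concanavalin A, a lectin from jack beans that stimulates T cells and thereby damages the liver, at 10 mg/kg into the tail vein on the day of collection. FMT-Con A mice were gavaged for 4 weeks with faeces, suspended in PBS, of mice that had been made a model of autoimmune hepatitis with concanavalin A, and then received the same 10 mg/kg injection. Con A against WT therefore asks about the injection, and FMT-Con A against Con A asks about the transferred faeces before an equal injection, with no group that had the transfer alone. The labels contradict each other on the sex of the mice and give no age, and they imply only by numbering the mice that the libraries of a group are separate animals, and a p-value here speaks of the spread among the libraries sequenced.

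Carriers of these families move amino acids, taurine, creatine, betaine, lactate, pyruvate and related acids across cell membranes. Several SLC7 proteins reach the cell surface only when joined to a heavy chain of the SLC3 family, and the lactate carriers of the SLC16 family need the chaperone basigin in the same way. Hepatocytes take up glutamine, alanine and arginine for urea and glucose production, while activated immune cells and growing cells depend on carriers of leucine, glutamine, cystine and lactate. Many carrier genes are known targets of ATF4, the transcription factor that cells make when amino acids run short.

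Library totals ran from 20513051 to 29466806 counts, and the carriers took 0.206 to 0.352% of them. Mitochondrial transcripts held 19.6 to 22.4% of the WT counts, 5.03 to 9.96% of the Con A counts and 7.44 to 11.7% of the FMT-Con A counts. FMT-Con A 1 and 3 stood apart from the other libraries. Their summed levels of 24 skeletal muscle transcripts were 22081 and 21959 CPM (counts scaled to a common library size), against 2089 CPM for FMT-Con A 2, 2282 CPM in Con A 3, 12.3 and 24.0 CPM in Con A 1 and 2, and 54.4 to 70.4 CPM in WT. All 24 muscle transcripts were detected, and cardiac muscle markers reached at most 43.3 CPM in sum. FMT-Con A 1 and 3 were also more alike than any other pair of libraries. The median chi-square of their counts over genes was 2.71 times that of sampling alone. Other FMT-Con A pairs were at 13.0 and 13.1. Pairs within Con A were at 9.51 to 16.5 and pairs within WT at 3.57 to 5.98. Whether FMT-Con A 1 and 3 are independent animals was not tested, and every FMT-Con A SE and p-value treats them as separate. Hepatocyte markers summed to 57670 to 69673 CPM for WT, 48314 to 52788 CPM for Con A and 32503 to 33559 CPM for FMT-Con A. Alb alone was at 34020 to 47250 CPM in WT, so these sums mostly follow Alb. The 8 markers did not move together. In Con A against WT, 4 were called higher and 2 lower, and in FMT-Con A against Con A 0 were higher and 3 lower. Neutrophil markers without Lcn2, which hepatocytes also make, summed to 10.1 to 15.8 CPM in WT and 229 to 460 CPM in the injected libraries (5387 to 8378 CPM with Lcn2). T and NK cell markers were at 11.2 to 13.7 CPM for WT, 49.3 to 81.2 CPM for Con A and 25.6 to 29.4 CPM for FMT-Con A. Gzmb was the largest single part of the Con A sums, at 21.2 to 37.7 CPM. Of the 13 tested T and NK cell markers, 10 were called higher and 1 lower in Con A against WT. In FMT-Con A against Con A, 0 of them were higher and 6 lower. In bulk liver, fewer cells of a type and less RNA per cell cannot be told apart, and the part of these cell types in the results that follow was not tested.

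Promoter sequence was available from RefSeq (GRCm38.p6, 250 bases before to 50 bases after each start site) for 55 of the 78 genes and 35 of the 50 tested. The 4 stretches printed here are shown for genes that the results turn on: the cystine carrier Slc7a11, the lactate carriers Slc16a3 and Slc16a1, and the shared heavy chain Slc3a2. Slc7a11 had the largest estimated rise after the injection, but from 2 counts in WT. Its 95% counting interval of 24.4 to 744 times includes the 40.7-fold rise of Slc16a3. Capitals mark matches on either strand to TGATGNAA (the C/EBP-ATF response element, bound by ATF4) in the first line and to ACGTG (the core of the hypoxia response element) in the others. The Slc7a11 stretch is chr3:50443614-50443713 on the minus strand, the Slc16a3 stretch chr11:120949007-120949066 on the plus strand, the Slc16a1 stretch chr3:104638434-104638493 on the plus strand and the Slc3a2 stretch chr19:8714028-8714087 on the minus strand, each written 5′ to 3′ along its gene.
Slc7a11: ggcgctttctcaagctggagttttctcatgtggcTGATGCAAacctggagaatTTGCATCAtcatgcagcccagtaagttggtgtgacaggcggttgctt
Slc16a3: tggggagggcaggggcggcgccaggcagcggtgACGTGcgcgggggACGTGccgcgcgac
Slc16a1: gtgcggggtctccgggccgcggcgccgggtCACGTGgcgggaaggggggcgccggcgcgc
Slc3a2: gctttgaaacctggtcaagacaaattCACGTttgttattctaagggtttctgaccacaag

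Slc7a11 held TGATGCAA beginning 66 bases before its start and again, on the opposite strand, beginning 47 bases before it. Over the whole windows, TGATGNAA was found for 4 of the 55 carriers (7.27%) and for 4.51% of the 27025 genes of the promoter table. Of the 16 carriers with a promoter that rose after the injection, 3 held it (Slc7a11, Slc7a7 and Slc1a4), and of the 12 that fell, 0 did. ACGTG was found for 20 of the 55 carriers (36.4%) and 21.8% of all genes, and it was about as frequent among those that rose (7 of 16) as among those that fell (5 of 12). Its 2 matches in the Slc16a1 stretch are the same site, CACGTG, read on both strands. The antioxidant response element TGACNNNGC was found for 11 carriers (20%, against 14.0% of all genes). It shares bases with ACGTG in Slc16a1 and in Slc7a6. The gamma-activated STAT site TTCNNNGAA was found for 4 carriers (7.27%, against 9.55%) and the NF-kappaB consensus for 8 (14.5%, against 9.55%). A match describes the letters of these windows and does not show binding. The printed Slc3a2 and Slc16a3 stretches lie before RefSeq starts that fall inside the annotated genes. Which start the counted transcripts came from was not tested.

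Compared per kilobase of exon, the glutamine carrier Slc38a3 was the most abundant carrier transcript in every group, at 198 CPM per kilobase in WT, 143 in Con A and 80.6 in FMT-Con A. Slc38a4, a sodium-coupled carrier of neutral amino acids found mostly in liver, came next in each group at 83.3, 64.8 and 36.5 CPM per kilobase. The third place was held in WT by Slc6a13, which carries GABA and taurine, at 54.1 ± 3.42 CPM per kilobase (SD, n = 3). In Con A the third and the fourth were Slc38a2 at 56.0 ± 6.68 and Slc7a2 at 55.4 ± 14.5 CPM per kilobase, which did not differ beyond their spread. Slc38a3 alone made up 33.6 to 38.6% of the summed carrier CPM of WT libraries, 21.6 to 23.6% of Con A and 19.4 to 20.7% of FMT-Con A libraries. The sum over all carriers was 2911 ± 59.0 CPM in WT, 3368 ± 669 CPM in Con A and 2099 ± 319 CPM in FMT-Con A (SD, n = 3).

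**Figure D1:**
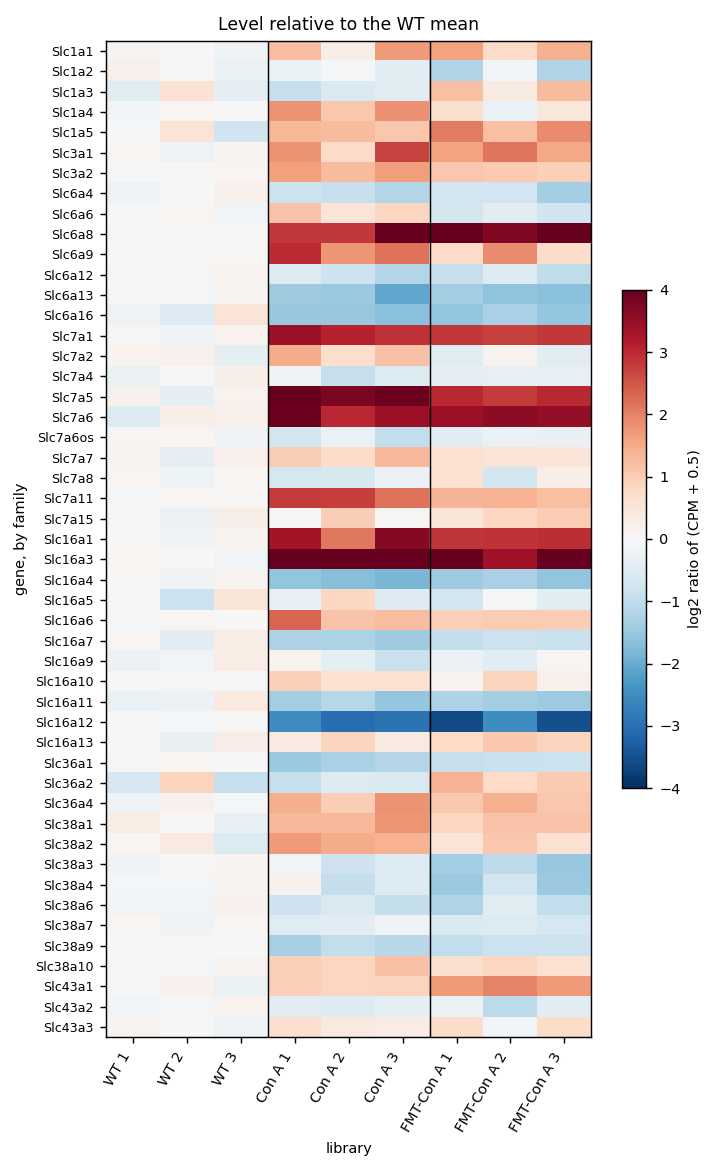
Colours give the log2 ratio of each library's CPM plus 0.5 to the WT mean plus 0.5 for 49 of the 50 tested genes (rows, by family) in the 9 libraries (columns), with the scale capped at 4 in both directions. Red rows such as Slc7a5, Slc7a1, Slc16a3 and Slc6a8 and blue rows such as Slc16a12 and Slc6a13 run through all 6 injected libraries, while Slc38a3 and Slc38a4 are deepest blue in FMT-Con A 1 and 3.

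After the injection, carriers of leucine (Slc7a5), arginine (Slc7a1), cystine (Slc7a11), creatine (Slc6a8) and lactate (Slc16a3) rose from WT means under 2 CPM. The GABA and taurine carrier Slc6a13, the betaine carrier Slc6a12 and the creatine carrier Slc16a12, all among the 12 most abundant in WT, fell. In Con A against WT, 23 of the 50 tested carriers rose and 13 fell (edgeR quasi-likelihood test, Benjamini-Hochberg adjusted p under 0.05 over all genes tested), which is 72% against 63.4% of all genes tested. The rises were 46% of the carriers against 32.5% of all genes, and the falls 26% against 30.9%. A change of at least 2-fold was called for 29 carriers (58%, against 43.1% of all genes). All libraries of one group lay above all of the other for 40 carriers (80%, against 69.8%). The median log2 fold change was 0.60 over the carriers and 0.01 over all genes.

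**Figure D2:**
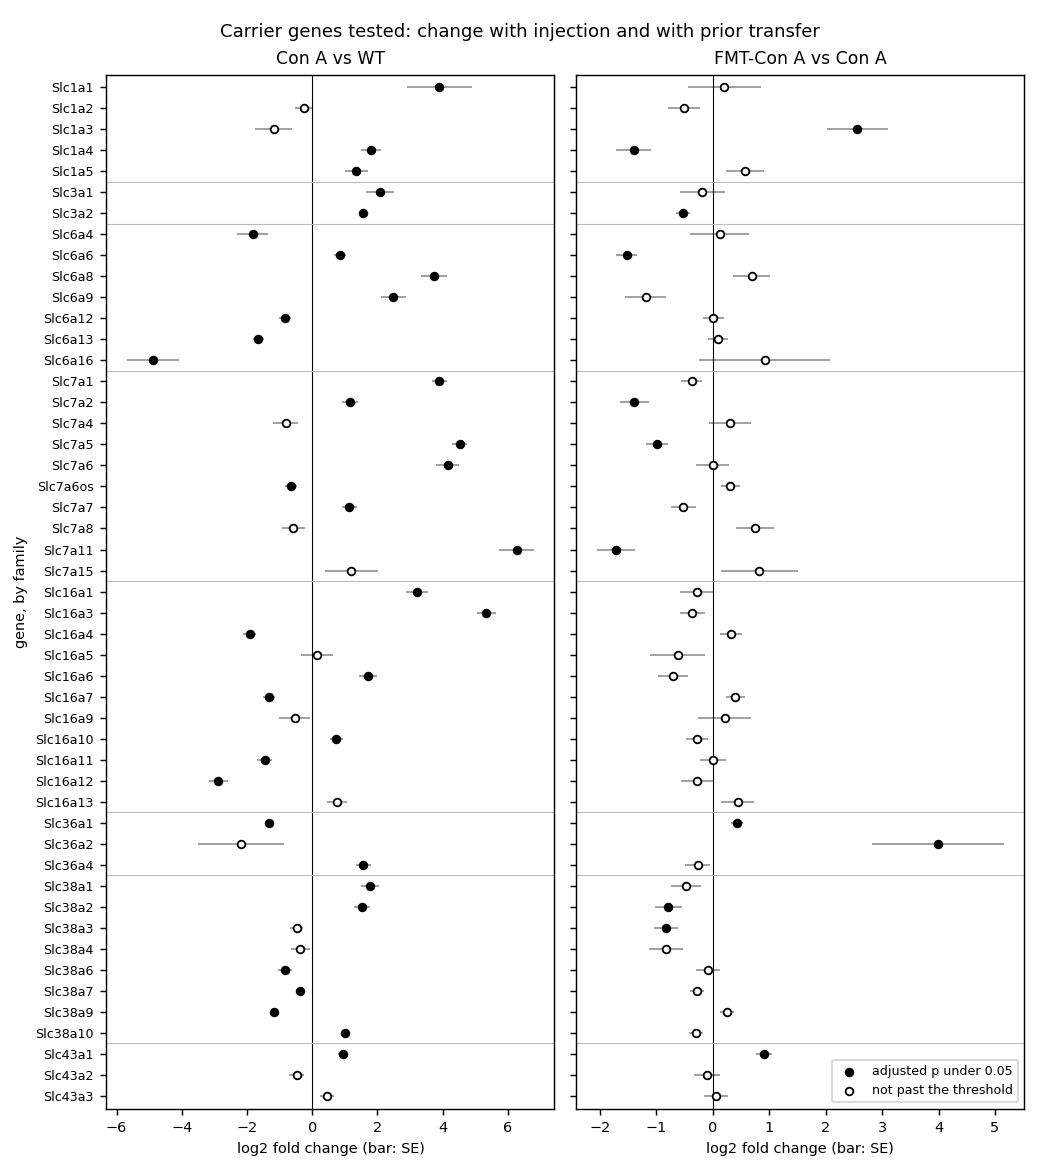
Points give the log2 fold change of 49 of the 50 tested genes with its SE (bars), for Con A against WT on the left and FMT-Con A against Con A on the right; filled points passed an adjusted p of 0.05. The left panel holds 23 filled points to the right of 0 and 13 to the left, and the right panel 4 and 8.

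The heavy chain Slc3a2 rose together with 4 of the light chains that join it, Slc7a5, Slc7a6, Slc7a7 and Slc7a11. Slc7a5 (chr8:121881150-121907694, minus strand), the light chain of the leucine exchanger, was measured at 1.01, 0.515 and 0.961 CPM in WT, 20.5, 17.4 and 19.7 CPM in Con A and 10.2, 8.64 and 10.3 CPM in FMT-Con A, the values being those of libraries 1, 2 and 3 of each group. Every injected library lay far above WT, and the FMT-Con A libraries sat between the other groups without overlap. The log2 fold change of Con A against WT was 4.52 ± 0.23 (SE), a 23.0-fold rise (edgeR adjusted p = 4.37e-07). Slc3a2 itself (chr19:8706882-8723369, minus strand) was at 22.9, 23.5 and 25.0 CPM in WT, 75.0, 58.3 and 77.0 CPM in Con A and 50.6, 49.4 and 46.2 CPM in FMT-Con A. Its groups did not overlap either, and it rose by 1.56 ± 0.13 on the log2 scale (adjusted p = 5.61e-06).

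Slc7a11 (chr3:49892526-50443614, minus strand), which exchanges cystine for glutamate and whose promoter stretch is printed with the other sequences, had 2 counts in the 3 WT libraries together and 170 in the Con A libraries. Its levels were 0, 0.0468 and 0.0418 CPM in WT, 3.19, 3.10 and 1.87 CPM in Con A and 0.852, 0.902 and 0.725 CPM in FMT-Con A. Taken as counts scaled to library size, Con A was 89.4 times WT, with a 95% counting interval of 24.4 to 744, and edgeR gave an adjusted p of 7.12e-06. Slc7a6 (chr8:106168857-106198706, plus strand), which exchanges cationic for neutral amino acids, stood at 0.366, 0.983 and 0.961 CPM in WT, 18.9, 9.75 and 13.1 CPM in Con A and 13.0, 14.5 and 14.2 CPM in FMT-Con A. All 6 injected libraries were above all WT libraries, and the log2 rise in Con A was 4.16 ± 0.35 (adjusted p = 6.78e-06). Slc7a7, a light chain with the same exchange, rose by 1.14 ± 0.23 on the log2 scale (adjusted p = 0.00178). The exchanger Slc7a8 did not pass the test at -0.57 ± 0.34 (adjusted p = 0.165). Slc7a7 shares 232 exon bases with Oxa1l on the opposite strand, and since the strand setting of the counting is not given in the sources used here, reads of such partners cannot be told apart.

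Per kilobase, Slc3a2 stood at 6.75 ± 0.31 CPM in WT, 19.9 ± 2.91 in Con A and 13.8 ± 0.64 in FMT-Con A (SD, n = 3). Its 6 light chains together (Slc7a5, Slc7a6, Slc7a7, Slc7a8, Slc7a10 and Slc7a11) came to 2.37 ± 0.34, 11.2 ± 1.62 and 8.52 ± 0.85 CPM per kilobase. The heavy chain was therefore 2.60 to 3.35 times the summed light chains in WT libraries, 1.71 to 1.86 times in Con A libraries and 1.45 to 1.86 times in FMT-Con A libraries. The ratio was higher in every WT library than in any injected one, and the injected groups overlapped. In WT the light chain pool was mostly Slc7a8 and Slc7a7, and in Con A mostly Slc7a5 and Slc7a6.

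**Figure D3:**
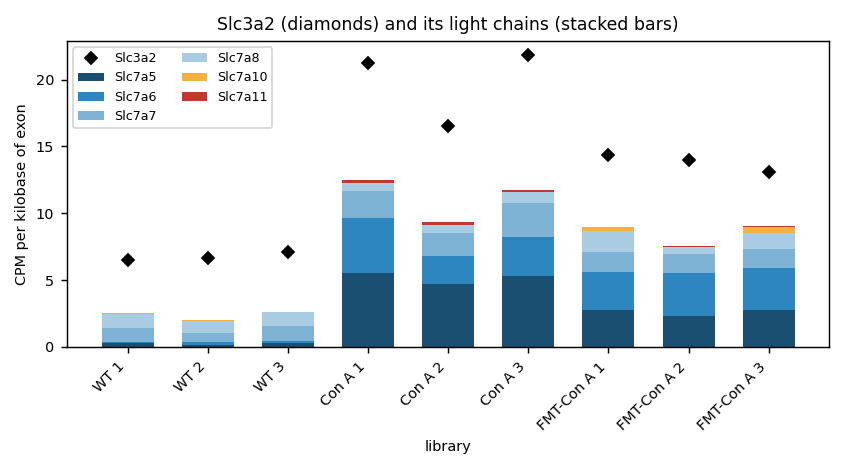
Diamonds give Slc3a2 and stacked bars the 6 light chains that join it, in CPM per kilobase of exon, for each of the 9 libraries. The bars grow from 2.37 on average in WT to 11.2 in Con A and 8.52 in FMT-Con A, and the diamonds stay above the bars in every library.

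The other heavy chain, Slc3a1, known from cystine uptake in kidney and gut, rose by 2.07 ± 0.42 on the log2 scale (adjusted p = 0.00178). It was measured at 4.94, 4.03 and 5.02 CPM in WT, 17.3, 8.30 and 33.2 CPM in Con A and 15.2, 22.2 and 14.5 CPM in FMT-Con A. The Con A libraries spread widely but all lay above WT. Its known partners stayed near absence, with 4 counts of Slc7a9 and 0 counts of Slc7a13 over all 9 libraries. Slc3a1 shares 601 exon bases on the opposite strand with Prepl, which was at 16.5 CPM in WT, 18.4 in Con A and 23.1 in FMT-Con A.

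The arginine and lysine carriers Slc7a1 and Slc7a2 rose. Slc7a1 (chr5:148327410-148399904, minus strand), the form found in most tissues but hardly in quiet liver, was at 0.641, 0.515 and 0.752 CPM in WT, 11.6, 9.17 and 8.0 CPM in Con A and 7.48, 7.07 and 7.59 CPM in FMT-Con A. Its log2 rise in Con A was 3.90 ± 0.23, a 14.9-fold change (adjusted p = 8.39e-07). Slc7a2 (chr8:40862396-40922308, plus strand), the liver form, stood at 249, 255 and 176 CPM in WT, 637, 372 and 509.8 CPM in Con A and 163, 252 and 167 CPM in FMT-Con A. Every Con A library was above every WT and every FMT-Con A library, and the latter groups overlapped. Its rise was 1.16 ± 0.25 (log2, adjusted p = 0.00267). Per kilobase the liver form exceeded Slc7a1 by 470.2 ± 165 times in WT, 67.0 ± 14.8 times in Con A and 33.4 ± 10.0 times in FMT-Con A (SD, n = 3).

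**Figure D4:**
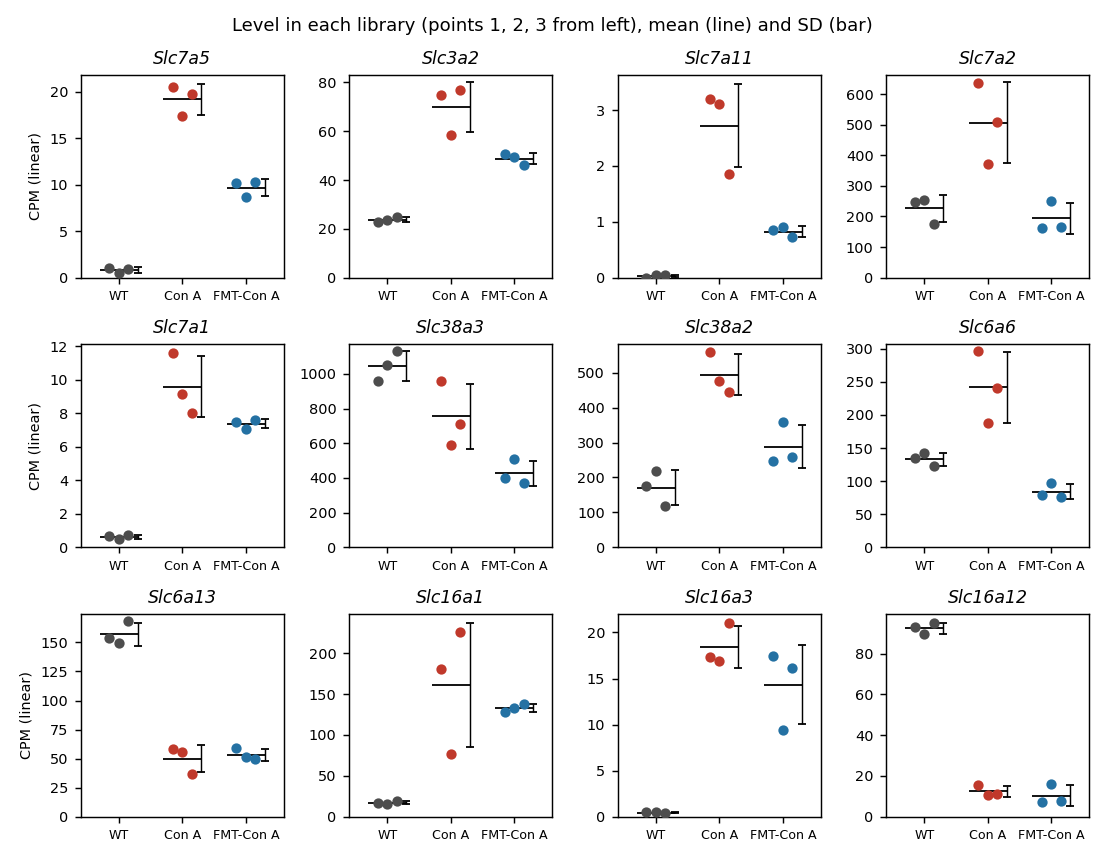
Points give the CPM of 12 carriers in each library, with the group mean (line) and SD (bar), on linear axes that start at 0. Slc7a5, Slc3a2, Slc7a11, Slc7a2, Slc38a2 and Slc6a6 peak in Con A, Slc16a1 and Slc16a3 are high in both injected groups, Slc6a13 and Slc16a12 are low in both, and Slc38a3 is lowest in FMT-Con A.

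Among the sodium-coupled neutral amino acid carriers, the inducible forms rose and the liver-typical forms did not pass the test. Slc38a2 (chr15:96687392-96699730, minus strand), a carrier of alanine and glutamine that cells make when amino acids run short, was at 177, 217 and 117 CPM in WT, 560.5, 478 and 446 CPM in Con A and 246, 358 and 258 CPM in FMT-Con A. Its groups did not overlap, and it rose by 1.54 ± 0.24 on the log2 scale (adjusted p = 0.000354). Slc38a1, of like function, rose by 1.77 ± 0.28 (adjusted p = 0.00035) from a WT mean of 1.40 ± 0.42 CPM. Slc38a3 (chr9:107650634-107669530, minus strand), which moves glutamine in both directions in hepatocytes, was at 957, 1054 and 1129 CPM in WT, 962, 591 and 711 CPM in Con A and 399, 508 and 369 CPM in FMT-Con A. Con A and WT overlapped, and the log2 difference of -0.47 ± 0.21 did not pass the test (adjusted p = 0.0681). Slc38a4 did not pass either, at -0.36 ± 0.29 (adjusted p = 0.301). Slc38a3 exceeded Slc38a2 per kilobase by 8.13 to 16.1 times in WT and by 2.07 to 2.87 times in Con A.

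Slc38a9, the lysosomal arginine sensor upstream of mTORC1, fell by 1.17 on the log2 scale (SE 0.12, adjusted p = 2.16e-05). Its WT libraries were all at 27.7 CPM, and the injected libraries lay between 10.6 and 15.1 CPM. Slc38a7, which exports glutamine from lysosomes, fell by 0.36 (SE 0.13, adjusted p = 0.0333), and it was the only one of the 36 called carriers whose WT and Con A libraries overlapped. That call held in 9 of 19 processing settings. Slc36a1, which exports small amino acids from lysosomes, was at 45.7, 50.2 and 47.3 CPM in WT, 16.7, 19.3 and 20.7 CPM in Con A and 24.8, 25.3 and 26.0 CPM in FMT-Con A. Its groups did not overlap, and it fell by 1.34 (SE 0.11, adjusted p = 5.29e-06). Slc36a4, a carrier of proline and tryptophan, rose by 1.57 ± 0.23 (adjusted p = 0.000262).

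Of the 5 tested carriers of glutamate and neutral amino acids in the SLC1 family, 3 rose and 2 did not pass the test. Among all genes tested, 32.5% rose. Slc1a2, the main glutamate carrier of liver and brain, kept overlapping groups at 120.4, 107 and 85.8 CPM in WT, 87.4, 99.3 and 77.9 CPM in Con A and 44.9, 96.2 and 45.4 CPM in FMT-Con A, and its log2 difference of -0.24 ± 0.28 did not pass the test (adjusted p = 0.466). Slc1a4, a carrier of alanine, serine and cysteine, was at 2.15, 2.53 and 2.34 CPM in WT, 9.27, 5.53 and 9.66 CPM in Con A and 3.95, 1.85 and 3.40 CPM in FMT-Con A. It rose by 1.80 ± 0.31 (adjusted p = 0.000676), with the Con A libraries above those of both other groups. Slc1a5, the glutamine carrier of dividing cells, stood at 3.39, 5.06 and 1.76 CPM in WT, 9.27, 8.98 and 7.67 CPM in Con A and 16.1, 8.50 and 13.8 CPM in FMT-Con A, and it rose by 1.35 ± 0.35 (adjusted p = 0.00731). The glutamate carrier Slc1a3 did not pass, at -1.17 ± 0.56 (adjusted p = 0.0922). The glutamate carrier Slc1a1 went from 3 counts in the WT libraries to 49 in Con A, a ratio of 17.2 with a 95% counting interval of 5.54 to 86.1. It shares 2631 exon bases with 4430402I18Rik on the opposite strand, which moved the other way, from 2.04 to 0.26 CPM.

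In the SLC6 family of sodium- and chloride-coupled carriers, all 7 tested genes changed, 3 up and 4 down, where 63.4% of all genes tested did. Slc6a8 (chrX:73673150-73682502, plus strand), the creatine carrier, was at 1.88, 1.69 and 1.80 CPM in WT, 15.8, 15.8 and 40.4 CPM in Con A and 41.6, 29.2 and 45.4 CPM in FMT-Con A. All injected libraries were above WT, and Con A 3 stood well above Con A 1 and 2. It rose by 3.75 ± 0.40 on the log2 scale (adjusted p = 2.8e-05). Slc6a9 (chr4:117834506-117875198, plus strand), the glycine carrier, was at 5.81, 5.90 and 6.14 CPM in WT, 50.1, 21.4 and 28.8 CPM in Con A and 10.5, 23.5 and 10.1 CPM in FMT-Con A, and it rose by 2.49 ± 0.39 (adjusted p = 0.000333). It shares 1429 exon bases on the opposite strand with Ccdc24, whose group means were at most 0.43 CPM. Slc6a6 (chr6:91684053-91759066, plus strand), the taurine carrier, was at 135, 142 and 123 CPM in WT, 296, 188 and 241 CPM in Con A and 79.6, 96.9 and 75.9 CPM in FMT-Con A. Its groups did not overlap, and it rose by 0.86 ± 0.18 (adjusted p = 0.00202).

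Slc6a13 (chr6:121300227-121337733, plus strand) stood at 154, 149 and 168 CPM in WT, 58.3, 55.5 and 36.5 CPM in Con A and 59.1, 51.6 and 49.4 CPM in FMT-Con A. No injected library came near WT, the injected groups overlapped, and the fall in Con A was 1.65 on the log2 scale (SE 0.18, adjusted p = 3.35e-05). Slc6a12, a neighbouring gene on chromosome 6 that carries betaine and GABA, fell by 0.82 (SE 0.19, adjusted p = 0.00326). The serotonin carrier Slc6a4 fell by 1.83 (SE 0.48, adjusted p = 0.00729) from a WT mean of 1.08 ± 0.21 CPM. Slc6a16 went from 74 counts in WT to 2 in Con A, a ratio of 35.2 with a 95% counting interval of 9.40 to 296.

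Of the 12 tested genes of the monocarboxylate family, 4 were higher, 4 lower and 4 not past the threshold, shares near those of all genes (32.5% higher and 30.9% lower). Slc16a3 (chr11:120948480-120960868, plus strand), the lactate exporter of glycolytic cells, was at 0.504, 0.468 and 0.376 CPM in WT, 17.4, 16.9 and 21.0 CPM in Con A and 17.4, 9.40 and 16.1 CPM in FMT-Con A. Every injected library was far above WT, and the rise in Con A was 5.35 ± 0.29 on the log2 scale, or 40.7-fold (adjusted p = 6.28e-07). Slc16a1 (chr3:104638668-104658462, plus strand), which carries lactate, pyruvate and ketone bodies, was at 17.4, 15.7 and 19.1 CPM in WT, 180.1, 77.2 and 226 CPM in Con A and 128, 133 and 138 CPM in FMT-Con A. The Con A libraries lay on both sides of FMT-Con A, all injected libraries were above WT, and the rise was 3.21 ± 0.33 (adjusted p = 2.49e-05). Slc16a7, with a high affinity for pyruvate and lactate, fell by 1.32 (SE 0.17, adjusted p = 9.87e-05).

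Slc16a12 (chr19:34668403-34747289, minus strand), a carrier of creatine, was at 92.9, 89.4 and 94.8 CPM in WT, 15.6, 10.7 and 11.4 CPM in Con A and 7.36, 16.2 and 7.67 CPM in FMT-Con A. It had the largest fall among carriers at 1 CPM or more in WT other than Slc6a16, 2.88 on the log2 scale (SE 0.29, adjusted p = 2.18e-05). Slc16a4 fell by 1.92 (SE 0.19, adjusted p = 2.13e-05) and Slc16a11 by 1.46 (SE 0.23, adjusted p = 0.000399). Slc16a6 rose by 1.71 ± 0.28 (adjusted p = 0.000435) but shares 1052 exon bases with Amz2 on the opposite strand, at 11.4 CPM in WT, 16.0 in Con A and 19.9 in FMT-Con A. Slc16a10, a carrier of aromatic amino acids, rose by 0.75 ± 0.20 (adjusted p = 0.00863).

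Of the SLC43 family, Slc43a1 (chr2:84838850-84863594, plus strand), which lets leucine and other large neutral amino acids pass without ion coupling, was at 10.8, 11.8 and 8.44 CPM in WT, 20.6, 19.1 and 19.7 CPM in Con A and 34.4, 42.7 and 34.5 CPM in FMT-Con A. Its groups formed 3 separate steps, and the rise in Con A was 0.94 ± 0.15 (adjusted p = 0.000336). Slc43a2, of like function, did not pass the test at -0.48 ± 0.23 (adjusted p = 0.0895), and neither did Slc43a3 at 0.45 ± 0.22 (adjusted p = 0.0909).

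In mice gavaged with faeces before the injection, carriers of taurine (Slc6a6), arginine (Slc7a2), cystine (Slc7a11) and leucine (Slc7a5) were lower than in mice that had the injection without the transfer. In FMT-Con A against Con A, 4 of the 50 carriers were higher and 9 lower, which is 26% against 16.8% of all genes tested. The higher ones were 8% of the carriers against 6.26% of all genes, and the lower ones 18% against 10.6%. The median log2 fold change was -0.14 over the carriers and -0.01 over all genes. The 13 called carriers had no overlap between the groups, as did 21 of the 50 in all (42%, against 32.7% of all genes).

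Slc1a4, Slc38a2, Slc3a2, Slc6a6, Slc7a11, Slc7a2 and Slc7a5 were called higher in Con A than in WT and lower with the transfer, and Slc43a1 was called higher in both comparisons. Both comparisons use the Con A libraries, so opposite calls are not independent of each other and nothing is read from how many there were. Slc6a6 fell by 1.52 on the log2 scale (SE 0.18, adjusted p = 0.00218), to below its WT level. Slc7a2 was lower by 1.38 (SE 0.25, adjusted p = 0.00952) and Slc1a4 by 1.40 (SE 0.30, adjusted p = 0.0168), and for both FMT-Con A overlapped WT. Slc7a11 was lower by 1.71 (SE 0.34, adjusted p = 0.013) and Slc7a5 by 0.99 (SE 0.19, adjusted p = 0.0113), and for both FMT-Con A was above WT. Slc38a2 fell by 0.78 (SE 0.24, adjusted p = 0.0491) and Slc3a2 by 0.52 (SE 0.12, adjusted p = 0.0224).

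Some carriers with the largest rises after the injection did not differ beyond the spread between FMT-Con A and Con A. Slc7a6 was at -0.00 ± 0.28 (log2, SE) in FMT-Con A against Con A (adjusted p = 0.996). Slc7a1 was at -0.37 ± 0.19 (adjusted p = 0.189), Slc16a3 at -0.36 ± 0.22 (adjusted p = 0.267) and Slc16a1 at -0.27 ± 0.31 (adjusted p = 0.555). The creatine carrier Slc6a8 was at 0.69 ± 0.33 (adjusted p = 0.174). Slc6a9 was at -1.19 ± 0.37, just short of the threshold (adjusted p = 0.0517), and DESeq2 called it (adjusted p = 0.00924).

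Slc38a3, which the injection alone had not moved past the threshold, was lower with the transfer and fell by 0.83 (SE 0.21, adjusted p = 0.0271). Slc38a4 stood at -0.83 ± 0.30 and did not pass (adjusted p = 0.0792). Slc43a1 rose by 0.91 ± 0.14 (adjusted p = 0.0053) and the lysosomal Slc36a1 by 0.42 ± 0.11 (adjusted p = 0.0282), the latter remaining below WT. The glutamate carrier Slc1a3, at 0.504, 1.50 and 0.543 CPM in WT, 0.209, 0.388 and 0.497 CPM in Con A and 2.62, 1.23 and 2.75 CPM in FMT-Con A, rose by 2.56 ± 0.54 (adjusted p = 0.015). Slc36a2, at 0.0916, 1.26 and 0 CPM in WT, 0, 0.146 and 0.124 CPM in Con A and 2.02, 1.14 and 1.49 CPM in FMT-Con A, rose by 3.99 ± 1.17 (adjusted p = 0.0446). It had 6 counts in the Con A libraries together. The Slc1a3 call held in 13 of 19 processing settings and the Slc36a2 call in 10 of 19.

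The counts of this comparison changed with the libraries fitted, and how far fewer libraries lowered them by loss of power was not tested. Among the libraries left out were FMT-Con A 1 and 3. With both left out, 1 FMT-Con A library remained and was assumed to vary like the other groups; 0 carriers were then higher and 0 lower, with 12 at an unadjusted p under 0.05. With a term for the summed muscle transcripts, 0 were higher, with 4 at an unadjusted p under 0.05, and 1 lower, Slc6a6. The calls over all genes also fell, from 1108 higher and 1873 lower to 32 and 67 without FMT-Con A 1 and 3. The direction of each of the 13 called carriers held in all 19 settings. Since their groups did not overlap, leaving out libraries could hardly reverse a direction, and little is read from this. The Slc7a11 call held in 13 of 19, with log2 differences from -1.92 to -0.99. Slc6a6 was at -1.32 ± 0.28 (SE) on the log2 scale without FMT-Con A 1 and 3 (adjusted p = 0.0823), and Slc43a1 at 1.11 ± 0.20 (adjusted p = 0.0592). Both passed in 17 of 19 settings. Slc1a4 was at -2.14 ± 0.42 without those libraries (adjusted p = 0.0698), Slc7a5 at -1.15 ± 0.31 (adjusted p = 0.130) and Slc7a2 at -1.01 ± 0.35 (adjusted p = 0.206), while Slc38a3 shrank to -0.57 ± 0.30 (adjusted p = 0.363) and Slc38a2 to -0.46 ± 0.33 (adjusted p = 0.498). Leaving out 1 library gave 1 higher and 2 lower without Con A 1, 1 and 2 without FMT-Con A 1, 1 and 3 without FMT-Con A 3, 6 and 14 without FMT-Con A 2, and 3 and 5 without WT 1.

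Carrier levels in the libraries with more muscle RNA were set beside those in the libraries with less. Slc6a8 was at 15.8 CPM in Con A 1 and 2, the injected libraries with little muscle RNA, and at 29.2 to 45.4 CPM in the injected libraries with more of it. Among the latter, Con A 3 and FMT-Con A 2, with muscle sums of 2282 and 2089 CPM, had 40.4 and 29.2 CPM. In FMT-Con A 1 and 3, with muscle sums of 22081 and 21959 CPM, Slc6a8 was at 41.6 and 45.4 CPM. Across processing settings its log2 rise in Con A over WT lay between 3.14 and 3.98, and its difference between FMT-Con A and Con A became -0.45 ± 0.17 with the muscle term (adjusted p = 0.18). Slc1a5 was higher in FMT-Con A 1 and 3 than in FMT-Con A 2, as was Slc7a8, at 7.89 and 6.10 against 2.80 CPM. Slc16a3 was also higher in FMT-Con A 1 and 3, at 17.4 and 16.1 against 9.40 CPM, but stood as high in Con A 1 and 2, at 17.4 and 16.9 CPM. Slc7a10, below the count filter, had 0.54 and 0.99 CPM in FMT-Con A 1 and 3 and 0 counts in FMT-Con A 2. Adipocyte markers, which include Fabp4, a gene that capillaries also express, stood at 159.7 and 158 CPM in those libraries against 81.3 CPM in FMT-Con A 2, and 7 stellate cell markers at 251 and 237 against 165 CPM, once Des, which muscle also expresses (482 and 472 against 58.9 CPM), was set aside. In the other direction, Slc38a3, Slc38a4, Slc1a2, Slc6a6, Slc6a9, Slc7a2, Slc16a10 and Slc43a1 were lower in FMT-Con A 1 and 3 than in FMT-Con A 2. Of these, Slc6a6 was at 79.6 and 75.9 against 96.9 CPM and Slc43a1 at 34.4 and 34.5 against 42.7 CPM. The part of muscle RNA in these levels was not tested beyond the fits with the term and without the libraries.

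**Figure D5:**
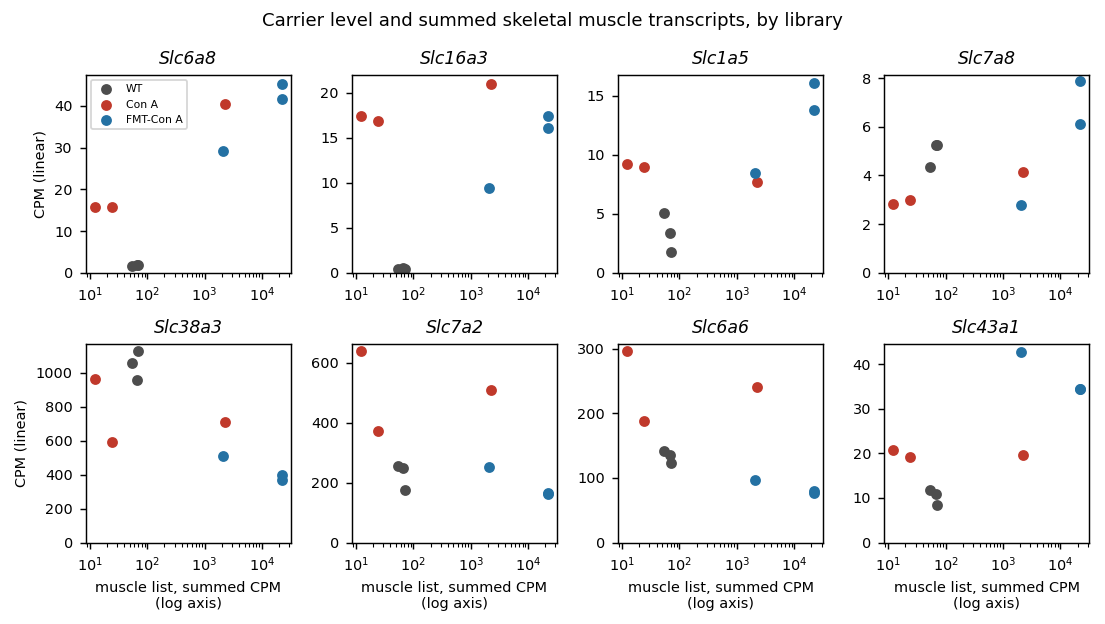
Points give the CPM of 8 carriers (vertical, linear) against the summed CPM of 24 skeletal muscle transcripts (horizontal, log axis) in the 9 libraries, coloured by group. Slc6a8 is at 15.8 CPM in Con A 1 and 2 and highest in the libraries with most muscle RNA. Slc6a6 is lower and Slc43a1 higher in the 3 FMT-Con A libraries than in the 3 Con A libraries.

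FMT-Con A against WT shares its WT libraries with the first comparison, so its values stand beside those and add no independent evidence. Of the 50 carriers, 22 were higher and 17 lower, which is 78% against 59% of all genes tested. A change of at least 2-fold was called for 28 carriers (56%, against 37.5%), and 41 had no overlap between the groups (82%, against 69.1%). The higher ones were 44% against 31.2% of all genes and the lower ones 34% against 27.9%. Slc1a4, Slc7a2 and Slc16a10, higher in Con A, did not pass the test here, and Slc6a6 was lower than in WT at -0.66 ± 0.18 (log2, adjusted p = 0.00967). The largest rises were Slc16a3 at 4.98 ± 0.29, Slc6a8 at 4.43 ± 0.40 and Slc7a6 at 4.16 ± 0.35 on the log2 scale, and Slc7a11, whose 65 counts against 2 in WT gave a ratio of 27.6 with a 95% counting interval of 7.35 to 233. Among those lower in this comparison but not past the threshold in Con A were Slc38a3 at -1.30 ± 0.21 (adjusted p = 0.000548), Slc38a4 at -1.19 ± 0.30 (adjusted p = 0.00646) and Slc1a2 at -0.75 ± 0.28 (adjusted p = 0.0425). The Slc1a2 call held in 8 of 19 processing settings, with log2 differences from -1.20 to -0.079 and a highest adjusted p of 0.825, and FMT-Con A 2 overlapped WT. The Slc38a4 call held in 16 of 19, and its smallest difference was -0.64, while the Slc6a6 call also held in 16 of 19.

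The ATF4 response, several of whose known targets are carriers, was read from a list of 25 genes. With the injection 17 rose, 4 fell and 4 did not pass the test, against 32.5% and 30.9% of all genes, with a median log2 fold change of 1.61 (0.01 over all genes). Atf3, itself a stress-induced transcription factor, rose by 8.15 ± 0.39 (log2 scale, SE after the sign, as for all list genes), Ppp1r15a, which restores protein synthesis, by 3.76 ± 0.24, Nupr1 by 3.12 ± 0.21 and Ddit3 by 2.04 ± 0.14. The 4 that fell were Atf5 at -0.70 ± 0.15, Cth at -1.08 ± 0.30, Psph at -0.43 ± 0.17 and Fgf21 at -1.98 ± 0.54. With the transfer, 2 were higher than in Con A (Nupr1 at 0.62 ± 0.18 and Chac1 at 1.48 ± 0.41), 7 were lower and 16 did not pass, against 6.26% higher and 10.6% lower of all genes, with a median of -0.15. Without FMT-Con A 1 and 3, 0 of the 25 passed with the transfer (8 at an unadjusted p under 0.05), and of the genes in this and the lists that follow only Nfe2l2 and Nos2 did, both lower. Sesn2, a leucine-binding inhibitor of mTORC1, was among the lower ones at -1.29 ± 0.17, as was Trib3 at -1.38 ± 0.23.

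The 6 tested partner proteins of the carriers all rose with the injection (median log2 fold change 1.58). Over all genes tested, 32.5% rose and 30.9% fell with the injection, and 6.26% were higher and 10.6% lower with the transfer. Basigin (Bsg), the chaperone of Slc16a1 and Slc16a3, rose by 1.81 ± 0.16, Arl6ip5, which binds the glutamate carrier Slc1a1, by 1.53 ± 0.11, the related chaperone embigin (Emb) by 2.46 ± 0.30 and the kinase Sgk1 by 1.64 ± 0.25. With the transfer, Bsg was lower at -0.74 ± 0.16 and the other 5 did not pass. Of 17 tested carriers of amino acids, peptides and pyruvate outside the rule, 4 rose and 5 fell with the injection, and 1 was higher and 8 were lower with the transfer (median -0.67). Slc17a8, a glutamate carrier, was lower in both comparisons, by 3.89 (SE 0.21) with the injection and 1.68 (SE 0.20) with the transfer. The mitochondrial ornithine carrier Slc25a15 rose by 1.33 ± 0.28 with the injection and was lower with the transfer by 1.34 (SE 0.28). These opposite directions share the Con A libraries and are not independent of each other. The mitochondrial aspartate and glutamate carrier Slc25a12 was the 1 that was higher with the transfer, at 1.62 ± 0.48.

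Enzymes that use what these carriers bring were read from lists as well. The shares of all genes to set beside their counts are 32.5% higher and 30.9% lower with the injection. With the transfer they are 6.26% higher and 10.6% lower. Of 11 lactate and pyruvate enzymes, 5 rose and 1, Pdk2, fell at -1.32 ± 0.33. Ldha, which makes lactate, rose by 3.68 ± 0.27 and Pcx, which makes oxaloacetate from pyruvate, by 2.07 ± 0.21. With the transfer, Pcx was lower at -0.98 ± 0.20 and Dlat, of the pyruvate dehydrogenase complex, higher at 1.34 ± 0.40. Of 13 glutamine and arginine enzymes, 7 rose and 1 fell with the injection, and 0 were higher and 5 lower with the transfer, while 8 did not pass. Nos2, which makes nitric oxide from arginine, rose by 10.15 ± 0.33 with the injection and was lower with the transfer by 3.72 (SE 0.23). Arg2, which splits arginine, rose by 3.57 ± 0.33 with the injection and was lower with the transfer by 1.94 (SE 0.29). Both comparisons use the Con A libraries, so such opposite directions are not independent of each other. Gls2, the liver glutaminase, was the 1 that fell, at -1.45 ± 0.15. Arg1, the liver arginase, did not pass with the injection at -0.03 ± 0.15 and was lower with the transfer at -1.09 ± 0.15.

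Of 12 cysteine and glutathione genes, 5 rose and 5 fell with the injection, and 1 was higher and 5 lower with the transfer. For this and the 2 lists that follow, all genes stood at 32.5% higher and 30.9% lower with the injection. With the transfer they stood at 6.26% higher and 10.6% lower. Gclc and Gclm, the subunits of the enzyme that commits cysteine to glutathione, fell by 1.20 (SE 0.16) and 1.18 (SE 0.16), while the cystine carrier Slc7a11 rose. Cdo1, which oxidises cysteine toward taurine, rose by 1.75 ± 0.23, and Csad, the next enzyme toward taurine, fell by 1.23 (SE 0.21). Nfe2l2, which encodes the regulator of the antioxidant response, rose by 1.03 ± 0.21 and was lower with the transfer at -1.64 ± 0.22. Of 5 tested creatine genes, 3 rose and 2 fell with the injection. Gamt, which completes creatine synthesis in liver, fell by 2.19 (SE 0.23), and the brain-type creatine kinase Ckb by 1.85 (SE 0.25). The muscle creatine kinases Ckm and Ckmt2, also called higher, were near 0 in Con A 1 and 2, so their rise rests on Con A 3. Of 30 tested genes of lysosomal amino acid sensing and mTORC1, 10 rose, 10 fell and 10 did not pass, with a median of -0.03. These counts are near the shares of all genes. Seh1l and Rragc rose by 2.60 ± 0.15 and 1.48 ± 0.12, and Deptor, an inhibitor of mTOR, fell by 2.53 (SE 0.17). With the transfer, 4 of them were higher and 5 lower.

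The remaining 28 carriers did not pass the count filter. Of these, 14 belonged to SLC6, which includes the carriers of dopamine, noradrenaline and proline, and 6 had 0 counts in all 9 libraries. No library had more than 26 counts or 0.99 CPM of any of them. Slc6a14, a broad amino acid carrier, had 0 counts in WT, 18 in Con A and 1 in FMT-Con A, so Con A was at least 6.31-fold higher than WT when the WT group is set to a floor of 3 counts. Its ratio of Con A to FMT-Con A was 22.3 with a 95% counting interval of 3.52 to 928. Slc38a11 had 25 counts in WT and 2 in Con A, a ratio of 11.9 with an interval of 2.96 to 104. These intervals and floors cover counting error only.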

How the data were processed

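The deposited files hold whole-number read counts per gene, 1 file per library, with no normalisation by the authors. Reads were mapped to GRCm38 (mm10), and the submitters' processing notes name HISAT2, featureCounts and CASAVA, while versions, strand setting and treatment of multiply mapped reads are not given in the sources used here. Libraries were made from polyadenylated RNA, per the labels' protocols.

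Symbols, positions and exon lengths came from GENCODE vM21, which matched 52083 of 55359 Ensembl identifiers. Another 1360 numbered gene models held 1.43 to 1.98% of the counts and stayed in the table. One model of all 9 libraries was fitted with edgeR 4.0.16 (R 4.3.3), using TMM normalisation, filterByExpr (minimum count 10, minimum total 15) and a two-sided quasi-likelihood F test with 6 residual degrees of freedom. Benjamini-Hochberg adjustment ran over 17704 genes with a threshold of 0.05. SE was taken as the size of a log2 fold change divided by the root of its F value, and the prior count was 0.125. CPM are scaled by TMM factors, except the marker sums, which use library totals. The fit was tested on simulated counts. DESeq2 1.42.0 and limma 3.58.1 were installed, and DESeq2 served as an alternative. Where a group had 0 counts, a floor of 3 counts over the group was used, and 1 to 3 counts were given as a ratio with a 95% exact interval.

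The carriers, the gene lists, the markers and the tests were chosen with earlier results of these data known. Carriers given in full are those past the threshold in both Con A comparisons, the 10 largest changes of at least 2-fold per comparison and direction at 1 CPM or more, and a list of carriers named whatever their p. List genes named are up to 4 with the lowest p, plus exceptions to a direction where there were 5 or fewer. Motifs were searched on both strands of RefSeq windows. Alternatives were other size factors, DESeq2, no count filter, fits on the compared groups only, a replicate block, a muscle term, and leaving out mitochondrial genes, muscle genes or libraries. A carrier and a list gene that stand in the counts are not reported here by name or in the figures.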

Additional observations from a re-analysis of the deposited data

How the results depend on the processing

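Directions of the called carriers held in every one of the 19 settings in which they could be fitted. Where the groups did not overlap, leaving out libraries could hardly reverse a direction, so little is read from this. In Con A against WT, leaving out 1 library gave 23 to 24 carriers higher and 12 to 16 lower. In FMT-Con A against Con A (4 higher and 9 lower), leaving out 1 library gave 1 to 6 higher and 2 to 14 lower. That comparison gave 0 higher and 0 lower without FMT-Con A 1 and 3 (12 carriers at an unadjusted p under 0.05), 1 higher and 0 lower without these and Con A 3 (7 lower at an unadjusted p under 0.05), and 0 higher and 1 lower with the muscle term (4 higher at an unadjusted p under 0.05), while DESeq2 on all libraries called 4 higher and 11 lower. Fitting only the groups compared gave 4 lower. In FMT-Con A against WT, the 17 lower became 9 without FMT-Con A 1 and 3, 11 without these and Con A 3, and 8 with the muscle term. Fewer libraries also mean less power. The cause of each shift was not tested.

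Among the called carriers and those named whatever their p, values that changed sign all belonged to carriers not past the threshold. The remaining carriers were not examined for sign changes. In FMT-Con A against Con A, without FMT-Con A 1 and 3 the log2 difference was 0.16 for Slc16a10, 0.13 for Slc1a2, -0.022 for Slc1a5 and 0.17 for Slc3a1. Without these and Con A 3 it was 0.085 for Slc16a1, 0.13 for Slc16a10, 0.078 for Slc1a2, -0.068 for Slc1a5, 0.83 for Slc3a1 and -0.11 for Slc6a13. With the muscle term it was 0.15 for Slc16a10, 0.059 for Slc1a2 and -0.45 for Slc6a8. Leaving out 1 library gave -0.59 to 0.053 for Slc16a1, -0.54 to 0.44 for Slc3a1, -0.29 to 0.13 for Slc43a2, -0.14 to 0.20 for Slc6a12 and -0.090 to 0.23 for Slc6a13. In FMT-Con A against WT, Slc1a4 was at -0.34, -0.30 and -0.21 and Slc7a2 at 0.15, 0.19 and 0.066 without FMT-Con A 1 and 3, without these and Con A 3, and with the muscle term.

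In the labels, replicate numbers only name the libraries and give no pairing. Between libraries of 1 number in different groups, deviations from the group means had correlations of -0.22 to 0.34. With 3 libraries a group, these values cannot settle whether numbers were paired. With the replicate block, Con A against WT gave 23 higher and 12 lower, FMT-Con A against Con A 4 and 8, and FMT-Con A against WT 22 and 18. With 3 libraries a group, carriers under about 1 CPM have few counts, and their differences are imprecise.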
